A study of Mus musculus with 24 samples.

Results

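Mouse embryonic stem (ES) cells that lack both Cdc14a and Cdc14b (Cdc14ab KO) were set against ES cells that lack only Cdc14b (Cdc14b KO), before and shortly after the start of neural differentiation. Both groups therefore carry the Cdc14b knockout, and the comparison asks what the loss of Cdc14a added to it. Of the 24 libraries of the series, 8 entered: Cdc14ab KO clones 1 and 3 and Cdc14b KO clones 1 and 3, each at day 0 and at day 2, chosen by their labels. The cells came from mouse blastocysts and were kept on feeder cells in medium with LIF. Before RNA extraction they were replated thinly on gelatin to take the feeders away. Day 0 cells were undifferentiated, and day 2 cells had spent 2 days in N2B27 medium with EGF and FGF2 in place of LIF. The design of the knockout alleles, the age and sex of the embryos and whether the clones of a genotype came from separate embryos are not given in the sources used here. Each genotype is known from 2 lines, and the p-values measure only the spread between these lines and days. Libraries were made from the 3′ ends of polyadenylated RNA, and values are normalized counts, that is, reads divided by 1 size factor per library.

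Cdc14 phosphatases remove phosphate groups that proline-directed kinases such as the cyclin-dependent kinases have placed on serine and threonine. In budding yeast the single Cdc14 drives the exit from mitosis. In mammals CDC14A sits at centrosomes, cilia and the actin cytoskeleton, and CDC14B is mainly nuclear and nucleolar and takes part in the DNA damage response. In this series the phosphatases were linked to UTF1, a chromatin-bound protein of pluripotent cells known for its place at bivalent promoters. Such promoters carry activating and repressing histone marks at once.

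The 8 libraries held 7201177 to 10856721 reads, and 14655 of the 17545 listed genes had at least 10 normalized counts in at least 2 of them and were tested. One library stood apart. Cdc14ab KO clone 1 at day 0 had a mean correlation of 0.884 with the other 3 day 0 libraries on the log2 scale, where each of those 3 had 0.925 to 0.933. It gave 8.70% of its reads to Gm42418, a gene that overlaps ribosomal RNA sequence, against 1.38% to 7.97% in the other 7 libraries, and listed 5.23% of genes at 0. The summed level of 38 ribosomal protein genes was 1039421 in it and 502543 to 629873 in the others, and Actb, cytoplasmic actin, had 219451 normalized counts in it and 39017 to 53025 in the others. The limma counts over both days and at day 0, the described genes as a set and several list medians are given with and without this library. The genes named at day 0, the DESeq2 calls and most single genes of the lists are given with all libraries only. The pluripotency factor Pou5f1 was at 39102 and 26183 at day 0 in Cdc14ab KO clones 1 and 3, against 16771 and 26189.5 in Cdc14b KO clones 1 and 3, a level that fits the labelled cell type. Of the endoderm markers Sox17 was at 0 to 5.56 normalized counts over the 8 libraries, while the 14 listed genes of the endoderm list together held 3032 to 8159.

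The targeted genes and Utf1 came first. Cdc14a (chromosome 3, 116272553 to 116424032, minus strand, GRCm38) was close to the detection limit in every line. It had 10.1 and 4.22 normalized counts in Cdc14ab KO clones 1 and 3 at day 0, against 15.4 and 8.89 in Cdc14b KO clones 1 and 3, and 4.30 and 7.26 at day 2, against 11.0 and 6.76. The groups overlapped on both days, and the fitted log2 difference was -0.64 with a 95% interval of -1.87 to 0.59. Where the allele was cut is not given here, and 3′ end reads check a knockout only if the cut removes the 3′ end, so these values do not test the labels. Cdc14b (chromosome 13, 64189268 to 64275290, minus strand), absent by label from both groups, had 325 and 247 normalized counts in Cdc14ab KO cells at day 0, against 233 and 263 in Cdc14b KO cells, and 144 and 203 at day 2, against 96.7 and 212. Its 3′ end was thus read in every knockout line, with a log2 difference of 0.22 (interval -0.49 to 0.94). Utf1 (chromosome 7, 139943789 to 139945112, plus strand) had 1142 and 1506 normalized counts in Cdc14ab KO cells at day 0, against 2407 and 1273 in Cdc14b KO cells. At day 2 it had 2078 and 1629 in Cdc14ab KO cells, against 2442 and 2112 in Cdc14b KO cells. Only the day 2 groups were apart. The log2 difference of Utf1 over both days was -0.36 ± 0.28 (SE; interval -0.98 to 0.26), which lies within a 2-fold change on either side.

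**Figure D1:**
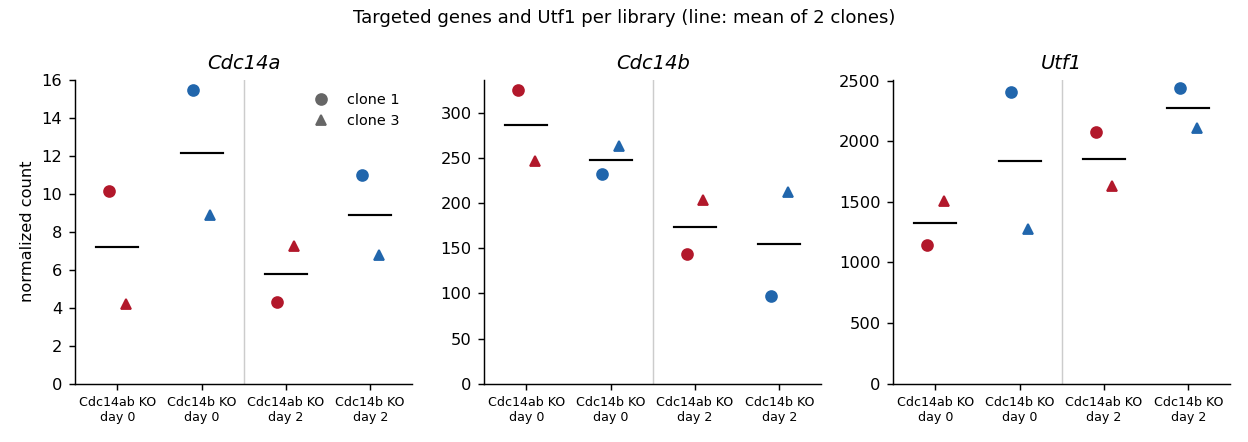
Normalized counts of Cdc14a, Cdc14b and Utf1 in each of the 8 libraries, with circles for clone 1, triangles for clone 3 and a line at the mean of each pair of clones. Cdc14a lies between 4.22 and 15.4 everywhere, and the Utf1 groups overlap at day 0 and lie apart at day 2.

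Over days 0 and 2 together no gene passed the test. limma, fitted over all 14655 genes on log2(normalized count + 1) with day as a block and line as a random effect, called 0 genes at an adjusted p under 0.05 (0% called), and its smallest adjusted p was 0.999. At an unadjusted p under 0.05 it left 95 genes, 0.648% of those tested. If no gene differed, p-values at their nominal level would put a share near 0.05 under that limit. The limma p-values thus ran high, and the absence of calls is weaker evidence of no difference. edgeR's quasi-likelihood test on the recovered whole reads also called 0 genes, with 198 (1.35%) at an unadjusted p under 0.05, and DESeq2 called 3, or 0.0205%, with 275 (1.88%) at an unadjusted p under 0.05. Unlike limma, edgeR and DESeq2 had no term for the line, so both days of a clone counted as separate replicates of its genotype. The same limma model called 530 genes (3.62%) for day 2 against day 0 in these 8 libraries, 256 higher and 274 lower. Among those were 18 of 35 cholesterol and fatty acid synthesis genes and 8 of 21 Hox genes, all of them higher at day 2.

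The absence of calls sets limits of different width for different genes. The median standard error was 0.40 on the log2 scale. The 95% interval lay wholly within a 2-fold change in either direction for 5314 genes (36.3%) and within a 4-fold change for 12615 genes (86.1%). The median log2 difference was 0.01, and 90% of genes lay between -0.73 and 0.64. Dividing each library by its size factor sets the typical gene near no change, so this median cannot show a shift of all genes. In 305 genes (2.08%) both Cdc14ab KO libraries lay above both Cdc14b KO libraries on day 0 and again on day 2, and in 209 (1.43%) they lay below. Across the days the groups hardly separated. Only 1 gene, Prss44, a serine protease gene, had all 4 Cdc14ab KO libraries at least 2-fold above all 4 Cdc14b KO libraries on the log2(normalized count + 1) scale, and no gene had them 2-fold below. Prss44 had 15.2 and 18.99 normalized counts at day 0 and 8.61 and 8.71 at day 2 in Cdc14ab KO cells, against 3.56 and 1.11 at day 0 and 2.99 and 1.69 at day 2 in Cdc14b KO cells. It was singled out after its values were seen.

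With no gene called, the genes described here are those with a log2 difference of at least 1, no overlap on either day, a mean of at least 20 normalized counts and the smallest unadjusted p, 12 in each direction. None of them passed the adjusted test, where each had an adjusted p of 0.999, and their values are a description. Among those higher in Cdc14ab KO cells, Snhg6, a non-coding host gene of small nucleolar RNAs, had 124 and 44.3 normalized counts at day 0 and 26.9 and 39.2 at day 2, against 28.5 and 26.7 at day 0 and 11.0 and 12.7 at day 2 in Cdc14b KO cells. Its log2 difference was 1.39 ± 0.43 (SE; 95% interval 0.42 to 2.36). Hif3a, a hypoxia-inducible factor subunit, had 58.2 and 41.2 at day 0 and 18.3 and 18.9 at day 2 in Cdc14ab KO cells, against 17.8 and 26.7 at day 0 and 4.98 and 11.0 at day 2 in Cdc14b KO cells, a log2 difference of 1.17 ± 0.41 (SE). In both genes every line of Cdc14ab KO was higher than every line of Cdc14b KO on the same day, as the choice of genes required.

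Ramp3, which pairs with receptors of the calcitonin family, was the most abundant of the 12. It had 985 and 462 normalized counts at day 0 in Cdc14ab KO cells, against 213 and 260.0 in Cdc14b KO cells, and 313 and 351 at day 2, against 262 and 207. Its log2 difference was 1.01 ± 0.36 (SE; interval 0.20 to 1.82). Tmem45a, a transmembrane protein gene, had 118 and 53.8 at day 0 in Cdc14ab KO cells, against 11.9 and 37.8 in Cdc14b KO cells. Hpn encodes the membrane serine protease hepsin and Mb myoglobin, and their log2 differences were 1.04 ± 0.44 and 1.39 ± 0.60 (SE). Megf6, the secretory vesicle GTPase gene Rab3b, Fam241b, the synaptic gene Prr7, the retinoic acid-induced receptor gene Gprc5a and mt-Co3, a mitochondrially encoded subunit of cytochrome c oxidase, had log2 differences of 1.03 to 1.25. In 11 of the 12 genes the highest of the 8 libraries was Cdc14ab KO clone 1 at day 0.

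Among the 12 genes lower in Cdc14ab KO cells, Rxrg, a retinoid X receptor, had 7.59 and 6.33 normalized counts at day 0 and 31.2 and 39.2 at day 2, against 20.2 and 24.4 at day 0 and 41.9 and 95.4 at day 2 in Cdc14b KO cells. Its log2 difference was -1.19 ± 0.42 (SE; interval -2.14 to -0.25), and it hardly moved, to -1.17, without Cdc14ab KO clone 1 at day 0. Sf3b5, a subunit of the splicing factor that recognises the branch point, had 94.9 and 242 at day 0 in Cdc14ab KO cells, against 913 and 528 in Cdc14b KO cells, and 483 and 385 at day 2, against 688 and 505. Its log2 difference was -1.32 ± 0.49 (SE). Pola2, the second subunit of DNA polymerase alpha, had 32.9 and 279.6 at day 0 in Cdc14ab KO cells, against 1203 and 282 in Cdc14b KO cells, and 625 and 609.6 at day 2, against 860.2 and 729.7. The day 0 values of Pola2 in Cdc14ab KO clone 3 and Cdc14b KO clone 3 were nearly equal, and its log2 difference of -1.47 came with an SE of 0.81.

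The remaining genes of the lower group were the odorant receptor gene Olfr889, the vomeronasal receptor gene Vmn1r226, Sdhaf4, an assembly factor of succinate dehydrogenase, the phospholipase gene Abhd16a, Ccdc62, Adgrb1, an adhesion receptor known from brain, Pdcd2, Efcc1 and Yae1d1. Their log2 differences ran from -1.41 for Efcc1 to -1.08 for Abhd16a. Olfr889 had the highest level among them, with 189.9 and 499 normalized counts at day 0 in Cdc14ab KO cells, against 1441 and 761 in Cdc14b KO cells, and 803 and 797 at day 2, against 1123 and 1036.

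Without Cdc14ab KO clone 1 at day 0, all 24 differences moved closer to 0. Their sign is fixed by the choice of genes without overlap. Their median size was then 0.73 on the log2 scale, where it was 1.15 with all libraries, and 5 of the 24 still reached 1: Snhg6 at 1.09, Hif3a at 1.08, Rxrg at -1.17, Vmn1r226 at -1.11 and Ccdc62 at -1.16. The count of genes at an unadjusted p under 0.05 was 155 without this library, and none was called.

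**Figure D2:**
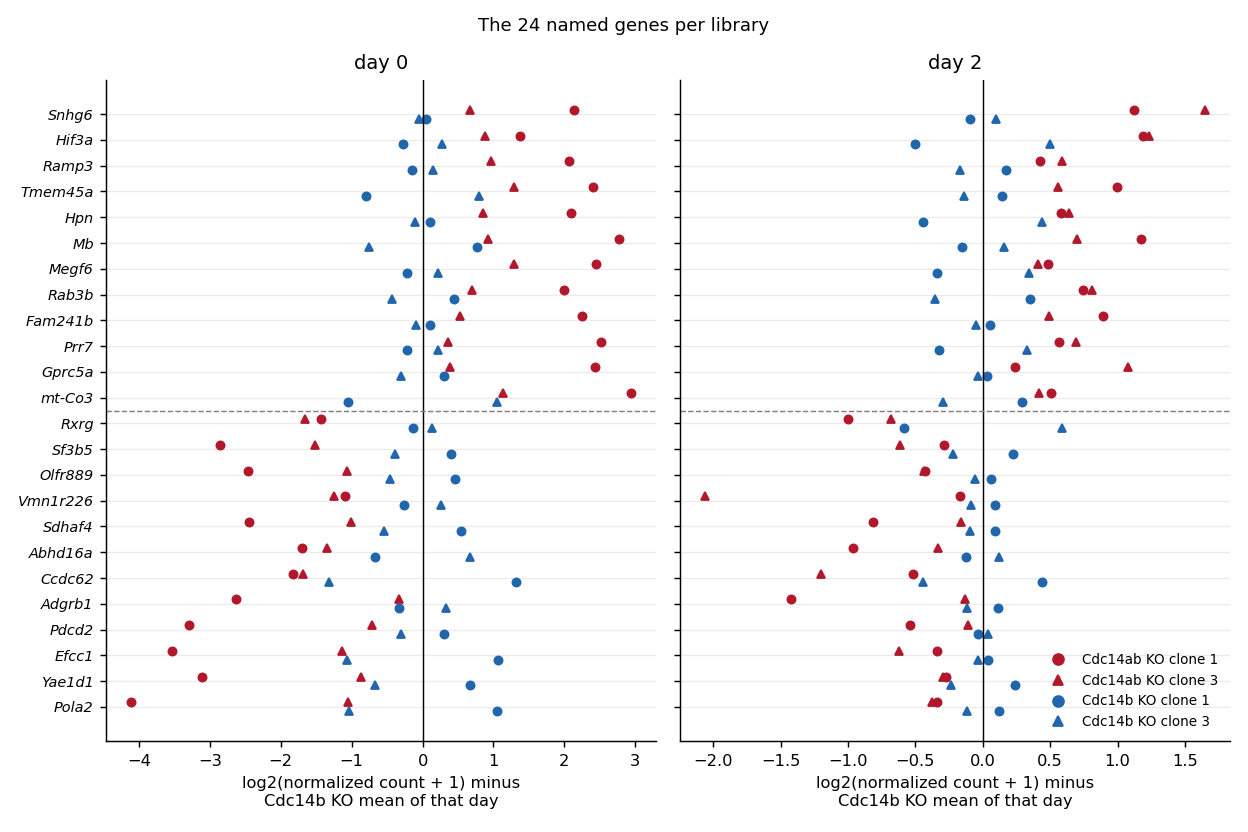
The 24 described genes, with each library's log2(normalized count + 1) minus the Cdc14b KO mean of the same day on the x axis, red for Cdc14ab KO and blue for Cdc14b KO, circles for clone 1 and triangles for clone 3. At day 0 the Cdc14ab KO clone 1 circles lie farthest from 0 in most genes, and at day 2 the Cdc14ab KO clones lie closer to the Cdc14b KO values.

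No gene of the pluripotency lists was called. Of 23 naive pluripotency genes, which mark the ground state of ES cells, 0 were called and 11 had a positive difference, with a median log2 difference of -0.0012, beside 0.01 over all genes tested. The naive median was 0.25 without Cdc14ab KO clone 1 at day 0, beside 0.01 over all genes. Their range with all libraries was -0.74 to 0.73. Zfp42, the naive marker Rex1, was at the top of that range, with 854 and 1191 normalized counts at day 0 in Cdc14ab KO cells, against 683 and 321 in Cdc14b KO cells, but 358 and 381 at day 2, against 405 and 204. The Zfp42 groups were apart at day 0 and overlapped at day 2 (log2 difference 0.73 ± 0.35, SE). Nanog, a core factor of the naive state, had a log2 difference of -0.10 ± 0.61 (SE). Of 18 general pluripotency genes 0 were called, the median was 0.01, and for 13 of them the interval lay within a 2-fold change. Pou5f1 had a log2 difference of 0.32 ± 0.36 and its partner Sox2 one of 0.21 ± 0.40 (SE). Of 17 formative and primed genes tested 0 were called with a median of -0.09, or 0.01 without that library, and Fgf5, the epiblast growth factor, had 13.9 and 21.1 at day 0 and 33.3 and 44.3 at day 2 in Cdc14ab KO cells, against 8.31 and 14.4 at day 0 and 27.9 and 27.0 at day 2 in Cdc14b KO cells.

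Chromatin regulators gave no call either. None of 9 DNA methylation and TET genes and none of 19 Polycomb genes was called, with medians of -0.04 and 0.11, or 0.03 and 0.02 without Cdc14ab KO clone 1 at day 0. Dnmt3l, the cofactor of de novo methylation, had 10358 and 9228 normalized counts at day 0 in Cdc14ab KO cells, against 6970.2 and 8148 in Cdc14b KO cells, and 10016 and 5608 at day 2, against 8313 and 2685. Its groups overlapped at day 2, where both clones numbered 1 were above both numbered 3. Eed, the core PRC2 subunit that reads the repressive mark, had a log2 difference of -0.37 ± 0.32 (SE), and Kdm2b, which brings PRC1 to unmethylated CpG islands, 0.35 ± 0.29 (SE).

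Developmental genes whose promoters are bivalent in ES cells were compared because UTF1 acts at such promoters. Of 120 such genes 49 were tested and 0 were called; 21 had a positive and 28 a negative difference, and the median was -0.08. Meis1, a homeobox partner of Hox proteins, was the 1 member at an unadjusted p under 0.05. It had 43.0 and 48.5 normalized counts at day 0 in Cdc14ab KO cells, against 17.8 and 18.9 in Cdc14b KO cells, and 109.7 and 108 at day 2, against 80.7 and 92.1. Both Cdc14ab KO clones were above both Cdc14b KO clones on each day, and the log2 difference of Meis1 was 0.80 ± 0.34 (SE; interval 0.05 to 1.55). Bmp4, a growth factor, had 75.9 and 92.9 at day 0 in Cdc14ab KO cells, against 61.8 and 35.6 in Cdc14b KO cells, with an overlap at day 2 and a log2 difference of 0.84 ± 0.38 (SE). Among 21 Hox genes 0 were called and the median was -0.16.

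Of 18 neural progenitor genes tested 0 were called with a median of 0.01. Sox1, the first marker of neural commitment, had 17.7 and 15.8 normalized counts at day 0 in Cdc14ab KO cells, against 7.13 and 15.6 in Cdc14b KO cells, and 156 and 127 at day 2, against 122 and 166. It was higher at day 2 in all 4 lines, with overlapping genotypes. Of 22 neuron genes 0 were called with a median of 0.18, of 13 mesoderm genes 0 with -0.14 and of 9 endoderm genes 0 with 0.18. Without Cdc14ab KO clone 1 at day 0 the medians were -0.0096 for the neuron, -0.23 for the mesoderm and 0.08 for the endoderm list. Of 15 trophectoderm genes 0 were called, with a median of 0.22. In that list Esx1, a homeobox gene of extraembryonic tissue, had 10.1 and 10.6 at day 0 and 26.9 and 44.3 at day 2 in Cdc14ab KO cells, against 5.94 and 2.22 at day 0 and 13.95 and 5.07 at day 2 in Cdc14b KO cells. Its libraries did not overlap on either day (log2 difference 1.58 ± 0.53, SE; interval 0.39 to 2.77). Only 4 of 21 genes of the 2-cell-like state were tested.

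Genes of the processes in which Cdc14 phosphatases act in other systems were looked at next. Of 47 mitosis and mitotic exit genes 0 were called, with a median of -0.03 and an interval within a 2-fold change for 29. Plk1, the kinase that drives mitotic entry and spindle assembly, was lower in Cdc14ab KO cells at day 0, with 1966 and 2450.2 normalized counts, against 9409 and 5183 in Cdc14b KO cells. At day 2 the Plk1 groups overlapped, with 7937 and 4441 in Cdc14ab KO cells, against 11005 and 6201 in Cdc14b KO cells, and the log2 difference over both days was -1.07 ± 0.40 (SE; interval -1.96 to -0.19). Pttg1, the securin that holds separase inactive, lay the other way without overlap on either day, at 632 and 868 at day 0 and 729 and 652 at day 2 in Cdc14ab KO cells, against 509.6 and 551 at day 0 and 622 and 334 at day 2 in Cdc14b KO cells (log2 difference 0.54 ± 0.28, SE). Cdk1 had 309 and 756 at day 0 in Cdc14ab KO cells, against 2478 and 1123 in Cdc14b KO cells, and at day 2 the genotypes overlapped.

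The neighbouring cell biology lists gave the same count. Of 27 centrosome and cilium genes 0 were called with a median of -0.07, and Plk4, the kinase of centriole duplication, had a log2 difference of -1.07 ± 0.54 (SE). Of 34 actin and cell junction genes 0 were called with a median of 0.11, of 38 genes of G1-S and replication 0 with -0.09, of 29 DNA repair genes 0 with 0.01 and of 21 p53 targets 0 with 0.03. Without Cdc14ab KO clone 1 at day 0 the medians were 0.0067 for the actin, -0.05 for the repair and -0.11 for the p53 list. For 24 of the 29 repair genes the interval lay within a 2-fold change, the highest share of the lists of at least 20 genes. Parp1, the poly(ADP-ribose) polymerase that senses strand breaks, had 1853 and 2611 normalized counts at day 0 in Cdc14ab KO cells, against 4809.6 and 3192 in Cdc14b KO cells (log2 difference over both days -0.48 ± 0.30, SE).

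Metabolic and stress lists held no called gene either. The median was 0.18 over 33 hypoxia and glycolysis genes, 0.02 over 35 cholesterol and fatty acid synthesis genes, -0.07 over 30 ATF4 and unfolded protein genes and 0.11 over 38 ribosomal protein genes. When Cdc14ab KO clone 1 at day 0 was left out, the median was 0.15 for the hypoxia, -0.07 for the cholesterol, -0.27 for the ATF4 and -0.0041 for the ribosomal protein list. Ldha, lactate dehydrogenase, had 8746 and 6074 normalized counts at day 0 and 4061 and 3122 at day 2 in Cdc14ab KO cells, against 5917 and 3949 at day 0 and 2865 and 2377 at day 2 in Cdc14b KO cells. Ldha was higher in Cdc14ab KO on both days without overlap, with a log2 difference of 0.52 ± 0.25 (SE) whose interval reaches from -0.04 to 1.08. Slc3a2, the shared chain of several amino acid transporters, had a log2 difference of -0.77 ± 0.32 (SE; interval -1.49 to -0.06). Over the 37 lists 772 different genes were tested, and 4 of them, 0.518%, had an unadjusted p under 0.05, beside 0.648% of all genes. Medians of the 32 lists with at least 10 genes tested ran from -0.16 to 0.22 with all libraries, and from -0.31 for the feeder fibroblast list to 0.25 for the naive list without Cdc14ab KO clone 1 at day 0.

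The spread of the genes tested followed day and clone number more than genotype. When the sum of squares of each gene over the 8 libraries was split into its 7 contrasts, day took 26.9% on average, clone number 21.1% and genotype 10.1%, where equal shares would be 14.3%. Genotype was the largest of the 7 in 1060 genes (7.23%). The weight of the clone number lay mainly at day 2. There 551 genes were at least 2-fold higher in both clones numbered 1 than in both numbered 3, and 796 were 2-fold lower. Between the genotypes at day 2, 12 genes were 2-fold higher in both Cdc14ab KO clones than in both Cdc14b KO clones, and 9 were 2-fold lower.

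At day 2 the clones numbered 3 of both genotypes had lower sums of naive pluripotency genes and higher sums of Hox genes than the clones numbered 1. The summed naive pluripotency level was 17022 and 9112 in Cdc14ab KO clones 1 and 3, against 20489 and 6963 in Cdc14b KO clones 1 and 3. The summed Hox level was 473 and 1488 in Cdc14ab KO clones 1 and 3, against 383 and 2467 in Cdc14b KO clones 1 and 3. Both sums put clone 1 with clone 1 and clone 3 with clone 3 across the genotypes. Fibroblast genes moved with this split: the summed level of 34 feeder fibroblast genes was 10439 and 24166 in Cdc14ab KO clones 1 and 3, against 9676 and 45791 in Cdc14b KO clones 1 and 3. Col1a1 had 71.0 and 417 normalized counts in Cdc14ab KO clones 1 and 3, against 37.9 and 677 in Cdc14b KO clones 1 and 3. Of the fibroblast markers Lum was at 0 to 31.2 and Postn at 0 to 31.2 over the 8 libraries. The part of fibroblast RNA in the day 2 values was not tested. In bulk RNA fewer cells of a type and less RNA per cell cannot be told apart.

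**Figure D3:**
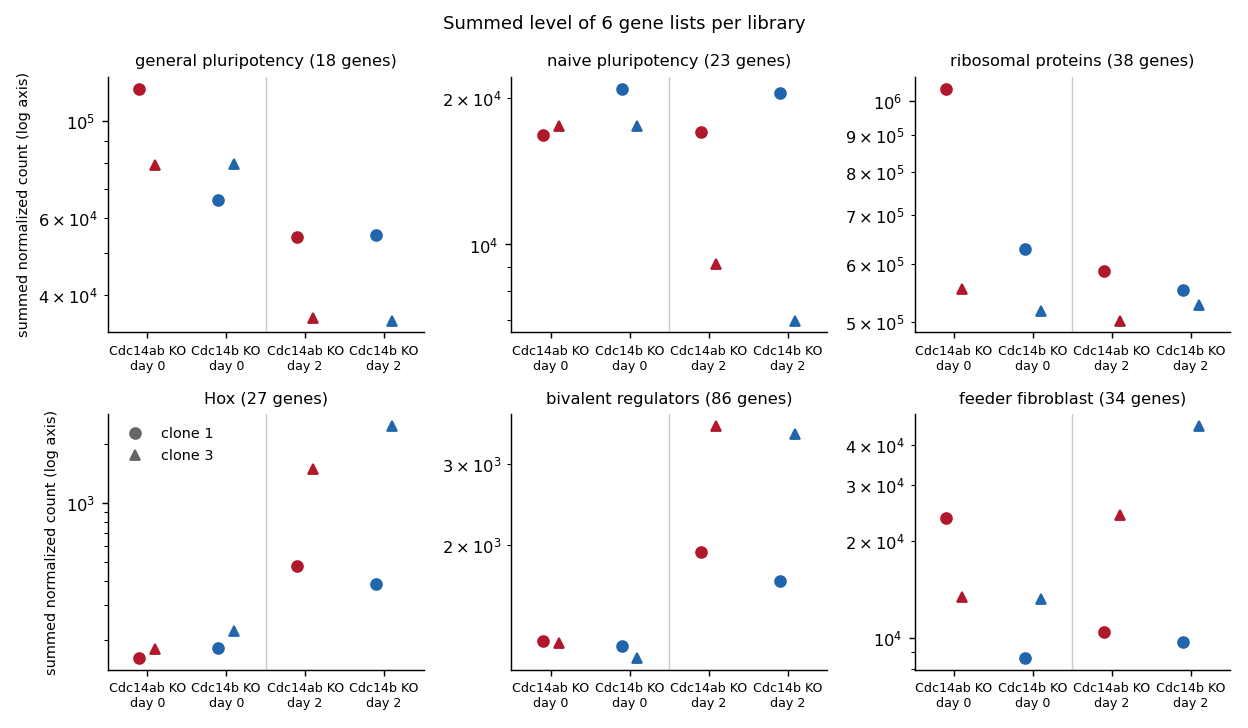
Summed normalized counts of 6 gene lists in each library on log axes, red for Cdc14ab KO and blue for Cdc14b KO, circles for clone 1 and triangles for clone 3. At day 2 the circles and the triangles lie apart in both genotypes for the naive pluripotency, Hox and feeder fibroblast lists, and at day 0 the ribosomal protein sum of Cdc14ab KO clone 1 is above all others.

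**Figure D4:**
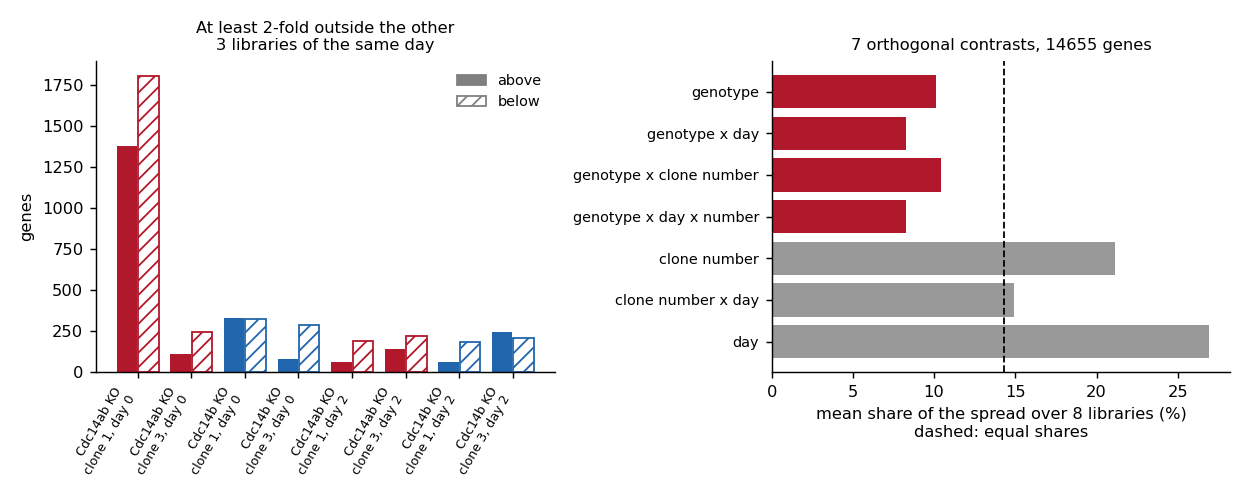
Left, the number of genes in which a library lay at least 2-fold above (filled) or below (hatched) all other 3 libraries of its day. Right, the mean share of each gene's spread over the 8 libraries taken by each of 7 contrasts, with those that involve genotype in red and a dashed line at 14.3%. Cdc14ab KO clone 1 at day 0 has 1378 genes above and 1804 below, and genotype takes 10.1%.

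At day 0 alone differences between the genotypes were larger than over both days, with a median size of 0.42 on the log2 scale, and they too passed no limma test. limma called 0 genes (0% called), with 623 (4.25%) at an unadjusted p under 0.05 and a smallest adjusted p of 0.889. edgeR called 0, with 573 (3.91%) at an unadjusted p under 0.05, and DESeq2 called 2, or 0.0136%, with 688 (4.69%). In 2298 genes (15.7%) both Cdc14ab KO libraries were above both Cdc14b KO libraries, and in 2178 (14.9%) both were below. Cdc14ab KO clone 1 lay at least 2-fold outside all other 3 libraries of day 0 in 3182 genes, 1378 above and 1804 below, where the other 3 libraries did so in 356 to 654 genes.

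The day 0 count differed with the Cdc14ab KO clone that was kept. Without clone 1, limma called 0 genes, with 213 at an unadjusted p under 0.05. Without clone 3, so that clone 1 stood alone for Cdc14ab KO and was assumed to vary like the other groups, it called 803 genes (5.48%), 246 higher and 557 lower. The called genes included 6 ribosomal protein genes higher and 5 lower, 5 cholesterol and fatty acid synthesis genes higher and 0 lower, and no member of the naive, general or formative pluripotency lists in either direction.

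The day 0 genes were named by the same rule, which required no overlap between the genotypes at that day. Gprc5b, an orphan receptor, had 161 and 153 normalized counts in Cdc14ab KO cells, against 28.5 and 43.3 in Cdc14b KO cells, a log2 difference of 2.13 ± 0.49 (SE; interval 1.01 to 3.24). Both Cdc14ab KO clones were above both Cdc14b KO clones, as the rule required. Emid1, an extracellular matrix gene, had 40.5 and 26.4, against 5.94 and 5.56, a log2 difference of 2.32 ± 0.56 (SE). Prss50, a testis protease gene, and Nenf, a secreted neurotrophic factor, followed with 1.66 ± 0.47 and 1.37 ± 0.40 (SE). In the other direction Ube2d1, a ubiquitin-conjugating enzyme, had 30.4 and 55.9 in Cdc14ab KO cells, against 149.7 and 190.0 in Cdc14b KO cells, a log2 difference of -2.01 ± 0.44 (SE; interval -3.01 to -1.002). Gpn2, a GTPase gene, had 10.1 and 16.9, against 64.1 and 56.7, and Rbm38, an RNA-binding protein gene of the p53 pathway, 41.8 and 155, against 520.3 and 413. Dqx1, a putative RNA helicase gene, had 63.3 and 137, against 1524 and 303; DESeq2 called it at this day with a log2 difference of -3.21 and an adjusted p of 0.0359, and limma gave -2.85 ± 0.74 (SE) with an adjusted p of 0.889.

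At day 2 alone the differences were small. limma called 0 genes (0% called), with 8 (0.0546%) at an unadjusted p under 0.05, edgeR 0 with 17 (0.116%) and DESeq2 0 with 21 (0.143%). These shares also lay far under the threshold of 0.05, so the p-values again ran high. The fits took both days together with a shared estimate of the spread of each gene. The day 0 libraries, with Cdc14ab KO clone 1 among them, therefore entered the day 2 standard errors. In limma the median standard error was 0.54 at day 2 and also at day 0. The day 2 counts thus do not rest on the day 2 libraries alone. Both Cdc14ab KO libraries were above both Cdc14b KO libraries in 1196 genes (8.16%) and below in 1086 (7.41%). The median size of a difference was 0.16, beside 0.42 at day 0. Rbp7, a retinol-binding protein gene, had 52.7 and 108 normalized counts in Cdc14ab KO cells, against 32.9 and 34.6 in Cdc14b KO cells (log2 difference 1.14 ± 0.47, SE). Fabp3, a fatty acid carrier, had 1415 and 1548, against 1148 and 404, Tns4, a tensin of cell adhesions, 40.9 and 36.3, against 17.9 and 16.9, and Slc1a6, a glutamate transporter gene, 55.9 and 67.5, against 32.9 and 24.5. Among the lower ones Trim30d had 7.53 and 5.08 in Cdc14ab KO cells, against 9.97 and 32.1 in Cdc14b KO cells, and the scramblase gene Plscr2 6.45 and 8.71, against 17.9 and 16.05. Their intervals all reached 0 except that of Rbp7, which began at 0.07, and that of Snhg6, which began at 0.0033.

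The test of whether the day 2 difference departed from the day 0 difference called 0 genes (0% called), with 154 (1.05%) at an unadjusted p under 0.05. edgeR called 0 with 81 (0.553%) and DESeq2 0 with 121 (0.826%). The 2 day-to-day changes of Cdc14ab KO lay above both of Cdc14b KO in 2025 genes (13.8%) and below in 2168 (14.8%). Emid1 had equal genotypes at day 2, at 20.4 and 26.1 in Cdc14ab KO cells, against 25.9 and 26.2 in Cdc14b KO cells, so the day 0 gap was gone (difference of the differences -2.49 ± 0.70, SE; interval -4.07 to -0.91). Gpn2 likewise had 23.7 and 24.7 at day 2 in Cdc14ab KO cells, against 26.9 and 23.6 in Cdc14b KO cells (2.06 ± 0.65, SE). S100a16, a calcium-binding protein gene, had 70.9 and 32.7 at day 0 in Cdc14ab KO cells, against 14.3 and 13.3 in Cdc14b KO cells, and 19.4 and 16.7 at day 2, against 25.9 and 32.1, a change of side without overlap on either day. Across all 14655 genes the day 0 and day 2 differences, which share no library but come from the same lines, correlated at 0.106, and at 0.249 without Cdc14ab KO clone 1 at day 0, both a description with no p.

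The 3 genes that DESeq2 called over both days have sequences nearly identical to those of abundant genes. In GENCODE M21 annotation Rps13-ps1 (chromosome 8, 87047689 to 87048226) is a processed pseudogene that matches the ribosomal protein gene Rps13 at 520 of 522 aligned bases. Tpm3-rs7 (chromosome 14, 113314608 to 113316754) is annotated as protein coding and matches the tropomyosin gene Tpm3 at 99.1% of 2108 aligned positions. Gm11942 (chromosome 4, 32964888 to 32965232) is a processed pseudogene that matches the ribosomal stalk gene Rplp1 at 336 of 345. For the pairs of ribosomal protein genes, 1 stretch each shows how few letters separate copy and parent. How reads were assigned between copy and parent was not tested. Each is the 30-base window of the parent's longest open reading frame with the most differences, 5′ to 3′, with the differing bases in capitals, credited to GENCODE M21 on GRCm38.
Rps13-ps1: gtgctcccaccCaattggaaatatgagtcG
Rps13: gtgctcccaccTaattggaaatatgagtcA
Gm11942: gctggtggtgctgctcTGtccactgcTgcT
Rplp1: gctggtggtgctgctcCAtccactgcCgcC

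Rps13-ps1 had 1002 and 1026 normalized counts at day 0 in Cdc14ab KO cells, against 158 and 100.01 in Cdc14b KO cells, and 108 and 655 at day 2, against 94.7 and 53.2. The groups did not overlap on either day, although Cdc14ab KO clone 1 at day 2 was close to the Cdc14b KO lines. DESeq2 gave a log2 difference of 2.66 with an adjusted p of 0.00144, and limma 2.45 ± 0.58 (SE) with an adjusted p of 0.999. The parent Rps13 had a log2 difference of 0.24 ± 0.40 (SE). Tpm3-rs7 had 36.7 and 48.5 at day 0 in Cdc14ab KO cells, against 486 and 181 in Cdc14b KO cells, and 349 and 149 at day 2, against 549 and 719.6. It was lower in Cdc14ab KO without overlap on both days, with -2.15 and an adjusted p of 0.0429 in DESeq2 and -2.12 ± 0.50 (SE) in limma, while Tpm3 had 0.02 ± 0.26 (SE). DESeq2 also called Tpm3-rs7 at day 0 alone, at -2.99 with an adjusted p of 0.0117. In the lines with Cdc14b, Rps13-ps1 ranged from 200.2 to 1813 normalized counts over Cdc14a KO libraries of days 0 and 2 and from 166 to 1260.3 over wild-type ones, and Tpm3-rs7 from 173 to 633 in Cdc14a KO and from 142 to 1787 in wild type.

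Gm11942 was high in 1 line. It had 9092 and 7574 normalized counts in Cdc14ab KO clone 3 at days 0 and 2, against 20.001 to 96.2 in the other 6 libraries, so Cdc14ab KO clone 1 was level with the Cdc14b KO lines. DESeq2 nevertheless called it over both days (6.75, adjusted p = 0.0429), and limma, which keeps the line as a random effect, gave 4.04 ± 1.78 (SE). The same line held 2 further copies of Rplp1 at raised levels. Gm10073, 98.8% identical to Rplp1, had 1209 and 835 normalized counts in it and 33.3 to 80.2 in the other 6 libraries, and Gm17511, 95% identical, had 386 and 275 in it and 7.53 to 58.2 in the others. Rplp1 itself had 19478 and 15307 in this line and 19342 to 72905 in the other 6 libraries.

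Differences that belonged to 1 line outnumbered those that belonged to the genotype. Cdc14ab KO clone 3 lay at least 2-fold above all other 3 lines on both days in 12 genes and below in 17, where the 2 Cdc14ab KO lines together did so in 1 and 0. Cdc14ab KO clone 1 had 5 and 19 such genes, Cdc14b KO clone 1 had 2 and 4 and Cdc14b KO clone 3 had 2 and 14. These counts are a description, and a smaller group passes such a limit more easily. Of the 17 genes low in Cdc14ab KO clone 3, 15 were small non-coding RNAs. Among them was Rpph1, the RNA of RNase P, with 70.7 and 56.6 normalized counts in it and 248 to 2089 in the other 6 libraries. Some of these RNAs were as low at day 0 in clone 3 of the lines with Cdc14b. Snora30 had 68.6 at day 0 in Cdc14ab KO clone 3, 64.6 in Cdc14a KO clone 3 and 49.1 in wild-type clone 3. At day 2 it had 115, 301 and 414 in these lines. Such low values were thus not all particular to Cdc14ab KO clone 3.

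The 12 genes high in Cdc14ab KO clone 3 included Olig1 and Olig2, neighbouring bHLH genes of the neural and oligodendrocyte lineage on chromosome 16 (91269772 to 91271933 and 91225457 to 91228677). Olig2 had 0 and 1.08 normalized counts in Cdc14ab KO clone 1 at days 0 and 2, 35.9 and 33.4 in Cdc14ab KO clone 3, and 0 in all 4 Cdc14b KO libraries. Olig1 had 1.27 and 4.30 in Cdc14ab KO clone 1, 152 and 74.7 in Cdc14ab KO clone 3, and 3.33 to 4.98 in the Cdc14b KO libraries. In the lines with Cdc14b both genes were read in every library of days 0 and 2, Olig1 at 189.8 to 252 in Cdc14a KO and 200.01 to 272 in wild type, and Olig2 at 23.9 to 34.2 in Cdc14a KO and 18.96 to 54.2 in wild type. Cdc14ab KO clone 3 was thus on the side of the Cdc14b-carrying lines for this pair of genes, and Cdc14ab KO clone 1 was on the side of the Cdc14b KO lines. Mid1, an X-linked ubiquitin ligase gene, separated clone 3 in a different way: it had 1082 and 917 there, 192 and 11.8 in Cdc14ab KO clone 1, 12.96 to 117 in Cdc14b KO libraries, and 28.5 to 149.9 in the Cdc14a KO and wild-type libraries of days 0 and 2. The fitted log2 difference of Olig2 between the genotypes, 2.84 ± 1.29 (SE), therefore averaged 2 unlike lines.

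**Figure D5:**
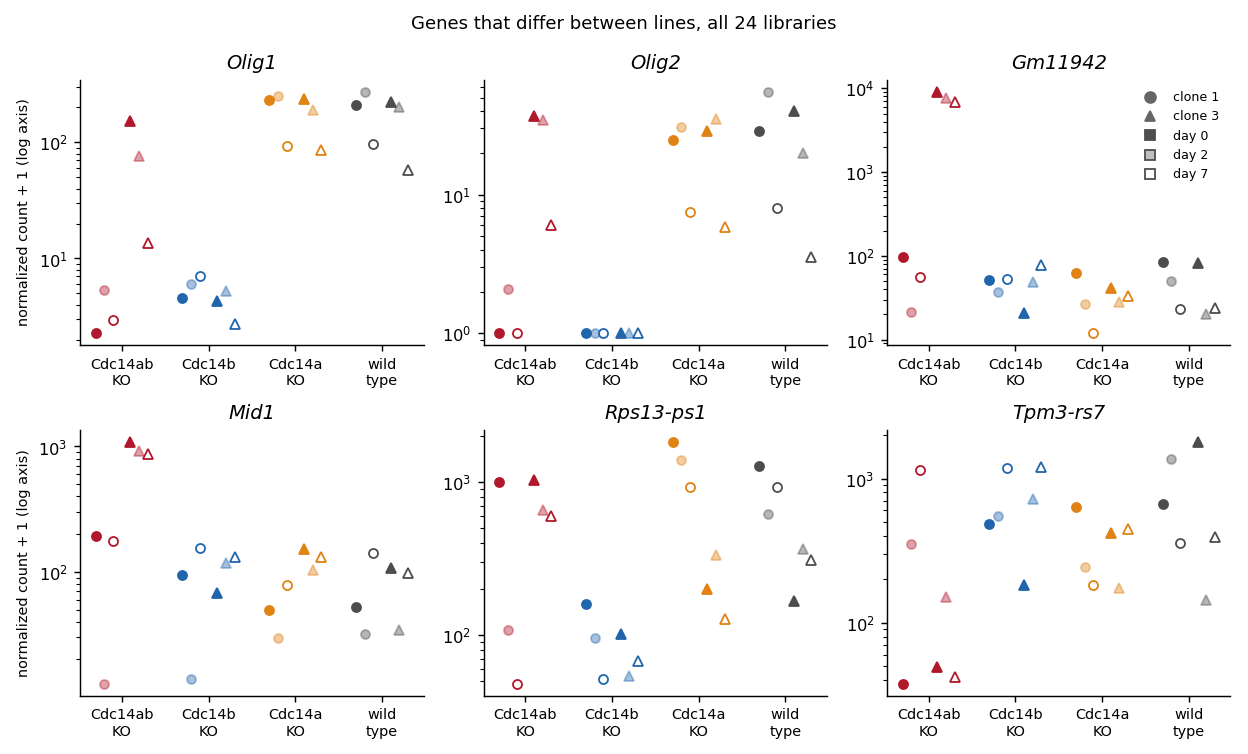
Normalized counts plus 1 on a log axis for 6 genes in all 24 libraries, grouped by genotype, with circles for clone 1, triangles for clone 3 and filled, pale and open symbols for days 0, 2 and 7. Olig1 and Olig2 are low in Cdc14ab KO clone 1 and in both Cdc14b KO clones, and Gm11942 and Mid1 are high only in Cdc14ab KO clone 3.

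The loss of Cdc14a could also be read where Cdc14b was present, by setting Cdc14a KO against wild type at the same days in 8 other libraries. There limma called 0 genes (0% called), with 227 (1.55%) at an unadjusted p under 0.05, edgeR 0 with 421 (2.87%) and DESeq2 0 with 532 (3.63%). The test of whether the effect of Cdc14a loss differed between the Cdc14b knockout and the Cdc14b-carrying lines called 0 genes (0% called), with 79 (0.539%) at an unadjusted p under 0.05, edgeR 0 with 132 (0.901%) and DESeq2 0 with 161 (1.1%). The interval of that difference lay within a 4-fold change for 11008 genes (75.1%). Utf1 had a log2 difference of -0.21 between Cdc14a KO and wild type. Of the 24 described genes 20 had the same sign in both comparisons, beside 64.1% of all genes, and the differences correlated at 0.365 across the 14655 genes. The correlation changed with 1 library. At day 0 it was 0.308 with both Cdc14ab KO clones, 0.360 with clone 1 alone and 0.00645 with clone 3 alone. At day 2 it was 0.0133. The count among the 24 could not change when Cdc14ab KO clone 1 at day 0 was left out, since their signs are fixed by the choice of genes without overlap. The 24 were chosen with that library included, and it was the highest of the 8 libraries in 11 of the 12 higher genes. Their count of 20 is therefore not independent of that library. Without Cdc14ab KO clone 1 at day 0, 52.7% of all genes had the same sign.

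At day 7, after 1 day on laminin without growth factors, the 2 Cdc14ab KO libraries were set against the 2 Cdc14b KO ones, and limma called 0 genes (0% called), with 714 (4.87%) at an unadjusted p under 0.05. The differences of days 0 and 2 correlated at 0.148 with those of day 7 across genes, and 16 of the 24 described genes kept their sign, beside 54.4% of all genes. Snhg6, the first of the higher genes at days 0 and 2, had a log2 difference of -1.05 at day 7, Tmem45a -1.36 and Rab3b -1.40. Of the lower genes Rxrg had -1.72 and Vmn1r226 -2.10 at day 7, the same direction as before. Tpm3-rs7 had -2.43, which came from Cdc14ab KO clone 3 at 41.1 normalized counts, while Cdc14ab KO clone 1 at 1151 was level with the Cdc14b KO lines at 1184 and 1195.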

How the data were processed

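The authors deposited 1 table of normalized counts for 17545 gene symbols in 24 libraries, a signal on a linear scale; per the labels the libraries were QuantSeq 3′ forward libraries from total RNA. The submitters' processing notes name GRCm38, HTSeq 0.6.1, DESeq2, TopHat2 2.0.10 and Bowtie 1.0.0. Each library's values were whole multiples of 1 step (100% of values within a tolerance of 0.001), so whole reads were recovered for edgeR and DESeq2. Gene positions came from GENCODE M21, where 17473 symbols were found and 72 were not.

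limma 3.58.1 in R 4.3.3 was fitted to log2(normalized count + 1), which understates the change of low genes, for genes that reached 10 normalized counts in 2 or more of the 8 libraries. Day was a block and line a random effect (consensus correlation 0.18 over both days), and p-values were adjusted over all genes by the Benjamini-Hochberg method. edgeR 4.0.16 and DESeq2 1.42.0 were run on the recovered reads, with no term for the line. All were tested on simulated data. Those data held no differences between lines, days or clone numbers and no outlying library, so they do not show how the tests behave with these. The intervals cover 95%. The genes described had a log2 difference of at least 1, no overlap on any day of the comparison and a mean of at least 20 normalized counts, in order of unadjusted p, leaving out predicted genes and pseudogenes. In each gene list up to 4 members with the smallest p were eligible; other list members, the copies and the genes of single lines were chosen after their values were seen. The members, the comparisons and the gene lists were chosen with earlier results of these data known. An exact permutation test of 2 clones against 2 cannot go below a two-sided p of 0.33. Clones share a number across genotypes; deviations of same-numbered clones correlated at 0.123 at day 0 and 0.679 at day 2, and the labels do not say that a number marks a shared origin. No pair of clones agreed within sampling noise. The sequence of 1 further copy and its parent is not reported here.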

Additional observations from a re-analysis of the deposited data

Results flagged for a closer look

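In 9 of the 49 genes checked, 1 of the 4 libraries of a genotype stood far from the other 3 by Dixon's criterion. Chance alone meets it in about 1 in 20 groups of like libraries. Each group here mixes day 0 and day 2, and most of the genes were chosen for large differences. The count can therefore not be set against that rate. Cdc14ab KO clone 1 at day 0 was the high library for Mb at 74.7 normalized counts, Fam241b at 72.1, Prr7 at 687 and Nenf at 485. Cdc14ab KO clone 3 at day 0 was low for Rab3b at 15.8 and high for Fabp3 at 2816. Among Cdc14b KO libraries clone 3 at day 0 was high for mt-Co3 at 127, clone 1 at day 0 for Pdcd2 at 269.6 and clone 3 at day 2 for Apod at 77.7. In 3 further genes the genotypes lay on opposite sides at day 0 and at day 2 without overlap. The day 2 difference minus the day 0 difference was 1.44 on the log2 scale for Ddit4, an inhibitor of mTOR signalling, -2.39 for S100a16 and -2.34 for the organic anion transporter gene Slc22a7. limma's test of that difference did not pass after adjustment for any of these 3 genes.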

How the results depend on the processing

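edgeR and DESeq2 were run with their main settings only. edgeR called 0 genes over both days, and DESeq2 called 3 over both days and 2 at day 0. The alternatives were run in limma, which called 0 genes in the comparison over both days under every one. Leaving out 1 library at a time gave 0 to 803 called genes at day 0 and 0 to 14 for the day 2 minus day 0 difference; both upper values came from leaving out Cdc14ab KO clone 3 at day 0, where the lone clone was assumed to vary like the others. Without Cdc14ab KO clone 1 at day 0 both counts were 0. With clone number as a replicate block the count was 0 over both days, at day 0, at day 2 and for the difference of days, with 345, 1090, 24 and 159 genes at an unadjusted p under 0.05. A clone-number block within each day and leaving out the 2 libraries with over 7% Gm42418 were chosen after seeing the data, and each called 0 genes, with 462 and 181 at an unadjusted p under 0.05. The direction of the 24 described genes is fixed by their choice and says nothing of stability; their median size was 1.15 on the log2 scale with all libraries and 0.73 without Cdc14ab KO clone 1 at day 0. With 2 lines per genotype the median half-width of a 95% interval, before any adjustment, was 0.90 on the log2 scale. A call needed an adjusted p under 0.05 over all 14655 genes, so differences well above that size could also go uncalled. Over both days limma called none of the 457 genes with an absolute log2 difference of at least 1.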
